A study of Homo sapiens with 12 samples.

Results

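Transcripts of 91 genes that encode subunits of the oxidative phosphorylation machinery were compared in 12 libraries of polyadenylated RNA. The cells were TeloHAEC, human endothelial cells of the aorta that telomerase keeps dividing. The genes were chosen by name and by their mean level over all libraries. They are the NDUFA, NDUFB, NDUFC, NDUFS, NDUFV, SDH, UQCR, COX4 to COX8 and ATP5 families and the mitochondrial MT-ND, MT-CO, MT-CYB and MT-ATP genes, with a mean of at least 5 TPM. TPM is the abundance of a transcript per length, scaled to a common total in each library. MT-ATP6 and MT-ATP8 were kept although their names end like those of pseudogenes. Of 35587 symbols 195 matched a name pattern, 95 of them were pseudogene names, and 9 of the remaining 100 lay below the level. Of the 91 genes kept, 78 are encoded in the nucleus and 13 in mitochondrial DNA, and all 91 were among the 13299 genes tested. By complex, the nuclear genes were 35 of complex I, 4 of complex II, 8 of complex III, 13 of complex IV with NDUFA4 counted there, and 18 of complex V. The mitochondrial genes were 7 of complex I, 1 of complex III, 3 of complex IV and 2 of complex V.

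The 6 groups, with 2 libraries each, are combinations of a cell line and a coating. NT is the control line, labelled wild type. TKO is a line in which Cas9 was aimed at TSPAN14, a tetraspanin that binds the Notch-cleaving protease ADAM10, and NKO is a line in which it was aimed at the receptor gene NOTCH1. Cells of each line were plated for 24 h on plastic coated with IgG, the control, or with the Notch ligand DLL4, each at 2.5 mg/mL. Each knockout is 1 line, so an effect of the targeted gene and a trait of that line cannot be told apart. The libraries are labelled biological replicates without further detail, so p-values measure the spread between these libraries. Libraries are named here by the numbers of the deposited columns, 2 and 3 for NT and TKO and 1 and 2 for NKO.

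In oxidative phosphorylation, complexes I and II of the inner mitochondrial membrane pass electrons from NADH and succinate through coenzyme Q to complex III, cytochrome c and complex IV, where oxygen is reduced. Complexes I, III and IV pump protons, and complex V, the ATP synthase, uses the gradient to make ATP. Mitochondrial DNA encodes core subunits of complexes I, III, IV and V and none of complex II, while the other subunits are nuclear products imported from the cytosol. Endothelial cells are known for drawing most of their ATP from glycolysis, and their mitochondria for roles in biosynthesis and signalling.

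The following stretches of the mitochondrial genome are shown because neighbouring genes of this set share them, so that their TPM are not independent. In GRCh38, MT-ATP8 and MT-ATP6 overlap on the plus strand by 46 bases at chrM:8527-8572, and MT-ND4L and MT-ND4 by 7 bases at chrM:10760-10766. Capitals mark the start codon of the downstream gene.
MT-ATP8 and MT-ATP6: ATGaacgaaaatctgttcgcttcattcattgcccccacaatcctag
MT-ND4L and MT-ND4: ATGctaa

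A pair of nuclear promoters is shown because SDHD and NDUFS8 had the largest increases in the TKO line among the 7 genes of the set on chromosome 11, all of which rose there. Each window runs from 250 bases before to 50 after the start site in RefSeq (GRCh38.p14), at chr11:112086623-112086922 for SDHD and chr11:68030431-68030730 for NDUFS8, both on the plus strand. Capitals mark exact matches, on either strand, to the letters searched for 3 factors: GCGCA followed by its reverse complement for NRF1 at base 141 and CCGGAAG for GABPA at base 174, here on the minus strand, both factors known as activators of nuclear respiratory genes, and TGGGAA for RBPJ, the DNA-binding partner of Notch, at base 226.
SDHD: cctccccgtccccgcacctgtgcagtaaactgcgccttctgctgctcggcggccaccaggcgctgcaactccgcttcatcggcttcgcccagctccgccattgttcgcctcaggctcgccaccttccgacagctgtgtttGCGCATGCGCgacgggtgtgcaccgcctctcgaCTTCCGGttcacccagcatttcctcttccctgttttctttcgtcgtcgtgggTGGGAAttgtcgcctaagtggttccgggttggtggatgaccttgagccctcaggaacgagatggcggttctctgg
NDUFS8: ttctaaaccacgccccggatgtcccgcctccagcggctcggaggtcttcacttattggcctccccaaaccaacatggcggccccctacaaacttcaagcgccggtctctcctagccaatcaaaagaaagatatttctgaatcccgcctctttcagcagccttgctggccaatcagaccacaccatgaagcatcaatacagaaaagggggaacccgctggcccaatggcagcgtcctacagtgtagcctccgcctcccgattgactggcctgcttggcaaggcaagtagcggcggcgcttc

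The NDUFS8 window held none of these letters, nor AAGATGGCG, searched for YY1. The SDHD window also covers the start of TIMM8B, a mitochondrial import chaperone gene on the opposite strand. A window of this kind was found for 65 of the 78 nuclear genes. The GABPA letters were in 20 of them (30.8%), against 10.3% of all 35116 windows, and the YY1 letters in 7 (10.8%, against 1.75%). The NRF1 letters were in 4 (6.15%, against 1.24%), namely SDHD, ATP5F1C, NDUFA8 and NDUFB4, and the RBPJ letters in 21 (32.3%, against 24% of all windows). A match describes the letters and is not evidence of binding.

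The libraries carried the endothelial identity that their label states. Of 12 endothelial markers 11 had a mean of at least 5 TPM, with a summed level of 2424 to 2875 TPM per library and CDH5, the endothelial cadherin, at 242 to 381 TPM. For smooth muscle and fibroblasts 1 of 8 markers reached that mean (sums of 11.9 to 32.8 TPM), for leukocytes 1 of 7 (29.5 to 68.1 TPM) and for epithelium 1 of 5 (18.8 to 71.6 TPM, with KRT5 and KRT14 listed at 0). TSPAN14 was still transcribed in the TKO line, at 127, 148, 113 and 109 TPM against 172 to 218 TPM in NT libraries, and NOTCH1 in the NKO line at 15.6 to 19.5 TPM against 17.8 to 31.5 TPM. NOTCH1 overlapped between NKO and NT on IgG (-0.10 ± 0.16) and was lower without overlap on DLL4, at 16.5 and 19.5 against 31.5 and 24.7 TPM (-0.61 ± 0.16, limma adjusted p = 0.023). The KPNA2 pseudogene KPNA2P2 took from 0.280% to 5.61% of a library's TPM, which lowers all other values of that library in proportion. The number of reads behind a TPM value is unknown.

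The 13 mitochondrial genes made up 77.6% to 83.1% of the TPM of the 91 genes, and the 91 genes 8.77% to 11.2% of all TPM. MT-ATP8 and MT-ATP6, subunits of the ATP synthase, had the highest means, at 12948 and 12517 TPM. The catalytic core genes of complex IV followed, with MT-CO2 at 10080.5, MT-CO3 at 8899 and MT-CO1 at 8328 TPM. MT-ND4 stood at 5022 TPM, MT-CYB, the only mitochondrial gene of complex III, at 3533 TPM, and the remaining genes of complex I between 1406 TPM for MT-ND5 and 3370.1 TPM for MT-ND6. MT-ND6 is the only one of the 13 encoded on the minus strand, and whether the counting used strand is not given in the sources used here, so its reads and antisense reads cannot be told apart. Nuclear pseudogene copies were listed beside these genes, the largest being MTATP6P1 at 1022 to 1386 TPM, and reads of MT-ATP6 and of its copy may have been divided between them.

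Nuclear subunits of one complex differed widely in level. The highest and lowest means in complex I were those of NDUFS5 (697 TPM) and NDUFA3 (14.8 TPM), both accessory subunits. In complex II, SDHA, which carries the flavin, had 131 TPM and SDHD, a membrane anchor, 84.6 TPM. Complex III ran from UQCRB (525 TPM) to the iron-sulfur protein UQCRFS1 (32.4 TPM), whose pseudogene UQCRFS1P1 was listed at a mean of 23.9 TPM, so that both values are uncertain. Complex IV ran from COX8A (546 TPM) to COX7A1 (16.5 TPM), and complex V from ATP5MF (674 TPM) to the inhibitor ATP5IF1 (137 TPM).

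Isoforms known for expression in other tissues were near or at 0. COX4I2 had a mean of 0.0257 TPM against 545 TPM for COX4I1, and COX6B2 one of 0.304 against 349.6 TPM for COX6B1. COX6A2 and COX8C were listed at 0 in all 12 libraries. The names nearest to the level of 5 TPM were the readthrough ATP5MF-PTCD1 (4.43 TPM) and NDUFA6 (3.11 TPM) below it and NDUFA3 (14.8 TPM) and COX7A1 (16.5 TPM) above it. COX7A1 reached that level through its TKO libraries alone, so its difference between lines is implied by the choice of genes and is given below without a test.

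Summed over its 78 genes, nuclear subunit RNA was lowest in the knockout lines on IgG. On IgG the sum was 19995 ± 353 TPM (SD, n = 2) for NT, 17892 ± 1302 for TKO and 18228 ± 807 for NKO. On DLL4 the sums were 19972 ± 151, 19989 ± 138 and 19863 ± 28.1 TPM in that order. All 4 knockout libraries on IgG thus had less of it, at 16971 to 18813 TPM, than the other libraries. No test was made of a sum. The TKO sum on DLL4 lies close to that of NT. It combines genes higher and genes lower than in NT, whose separate sums are given below. The mitochondrial sum ranged from 68717 to 89870 TPM and overlapped between all groups, with IgG means of 78603 ± 4544 TPM (NT), 74470.1 ± 8136 (TKO) and 80048 ± 9222 (NKO). The DLL4 means were 84242 ± 7959, 76090.4 ± 4980.1 and 76432 ± 10902.5 TPM in the same order.

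On IgG the mitochondrial share of the set was 79.7% ± 0.650 for NT, 80.6% ± 0.573 for TKO and 81.3% ± 2.42 for NKO. On DLL4 the shares were 80.8% ± 1.58, 79.2% ± 1.19 and 79.2% ± 2.37. The NKO libraries alone spanned 77.6% to 83.1%, a range that covers all 6 means. It pools both coatings: NKO library 1 stood at 83.1% on IgG and 80.9% on DLL4, and library 2 at 79.6% and 77.6%. Whether these numbers pair libraries is not given. The ratio of mitochondrial to nuclear TPM differed between complexes, from 1.40 to 2.23 in complex III, 2.80 to 4.48 in complex I, 3.38 to 4.74 in complex V and 6.04 to 7.84 in complex IV over the 12 libraries.

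**Figure D1:**
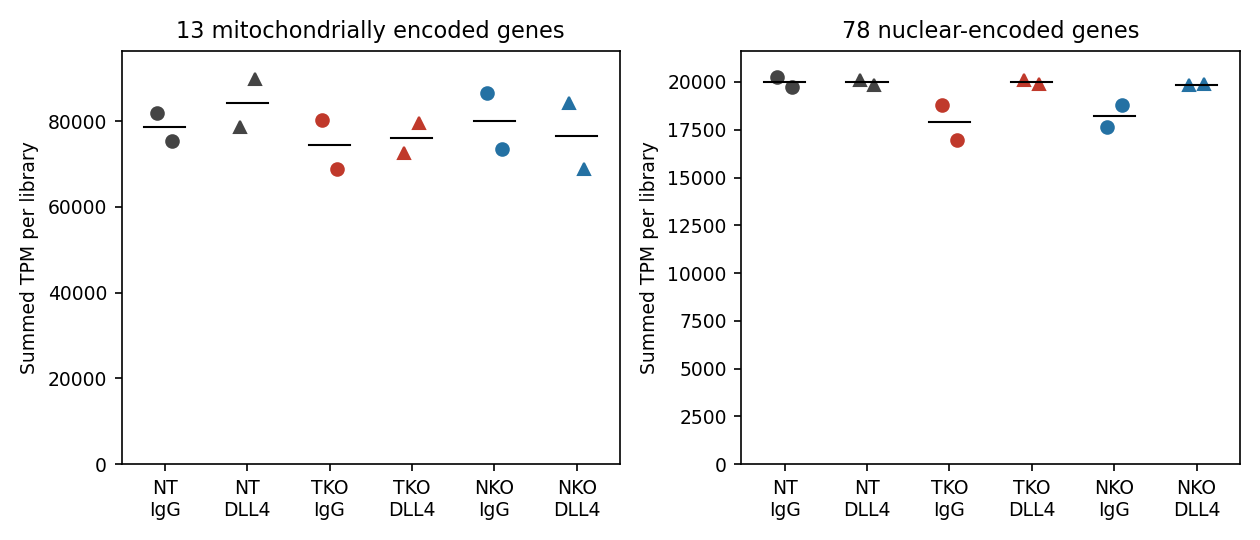
Summed TPM per library (vertical axis, from 0) of the 13 mitochondrially encoded genes (left) and the 78 nuclear genes (right) in the 6 groups on the horizontal axis. Points are single libraries (circles IgG, triangles DLL4) and lines are means of 2. The TKO and NKO libraries on IgG lie lowest on the right, and the groups overlap on the left.

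The first question was what the Notch ligand did to these genes in control cells. NDUFB9 and ATP5MC1 fell on DLL4 in NT cells, and 0 genes of the set rose. That is 2 of 91, where 16.0% of all genes tested passed in either direction (7.68% higher and 8.34% lower). NDUFB9, an accessory subunit of complex I, stood at 399.6 and 398.9 TPM on IgG and at 312 and 335 TPM on DLL4, a change of -0.30 ± 0.07 (SE) on the scale of log2(TPM + 1) used throughout (limma adjusted p = 0.016). ATP5MC1, one of 3 genes for the membrane ring of ATP synthase, stood at 356 and 359 TPM on IgG and 286 and 303 TPM on DLL4 (-0.28 ± 0.08, limma adjusted p = 0.032). In both genes, which were picked by the test, the DLL4 libraries lie below the IgG libraries without overlap. In bulk RNA, fewer cells of one kind and less RNA per cell cannot be told apart for any of these genes. With no filter on low values 1 gene rose and 1 fell. Neither call passed without NT library IgG 2, IgG 3 or DLL4 2, and ATP5MC1 did not pass without DLL4 3 either.

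As a group the nuclear genes were centred at 0 in NT cells. The median change of the 78 nuclear genes was 0.00, with 38 of 78 above 0, beside 0.01 for all genes tested. The median of the 13 mitochondrial genes was 0.07, and lay between -0.05 and 0.16 with 1 library left out, so that its sign rests on single libraries. Among markers of other cell types, ACTA2 of smooth muscle was higher on DLL4 (0.62 ± 0.14) and KRT15 of epithelium lower (-0.78 ± 0.15), and their part in these results was not tested.

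On DLL4 in TKO cells 7 nuclear genes rose and 0 fell, where 4.11% of all genes tested rose and 2.41% fell (6.51% in all). The 7 were NDUFA7 (0.45 ± 0.10), NDUFB10 (0.38 ± 0.09), NDUFB5 (0.35 ± 0.08), COX5B (0.32 ± 0.08), ATP5ME (0.29 ± 0.08), ATP5MPL (0.27 ± 0.07) and NDUFS5 (0.24 ± 0.06). Their limma adjusted p ran from 0.022 for NDUFA7 to 0.050 for NDUFS5. NDUFA7, an accessory subunit of complex I, stood at 83.8 and 69.2 TPM on IgG and at 106 and 103 TPM on DLL4. NDUFB10, another accessory subunit, stood at 211 and 194 TPM on IgG and at 269.7 and 257 TPM on DLL4. The DLL4 libraries lie above the IgG libraries in both genes, which were picked by the test.

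The median nuclear change in TKO cells was 0.15, with 74 of 78 genes above 0 (94.9%, against 52.9% of all genes tested, whose median was 0.01). KPNA2P2 moved with this comparison, at 1.81% and 5.61% of TPM in the TKO libraries on IgG and 0.545% and 1.10% on DLL4. The nuclear median was 0.08 without TKO library IgG 3 and 0.23 without IgG 2. CD14 of leukocytes was higher on DLL4 in TKO cells (1.30 ± 0.30), while CD68, the other leukocyte marker tested, was not (-0.21 ± 0.16). The summed leukocyte markers had means of 63.2 TPM on IgG and 60.0 TPM on DLL4 in TKO cells. KRT15 of epithelium was lower on DLL4 (-0.90 ± 0.15). These markers were likewise not tested as a source. With KPNA2P2 left out and the libraries rescaled, the nuclear median was 0.11 and 2 genes rose; whether it has a further part in the result was not tested. Without TKO library IgG 3, DLL4 2 or DLL4 3 the count was 0, and it was 5 without TKO library IgG 2.

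In NKO cells 0 genes of the set passed limma's test for DLL4. An unadjusted p under 0.05 was found for 17 of 91, beside 1221 of all 13299 genes tested. Of all genes tested 0.782% passed, 0.511% higher and 0.271% lower, so few genes of any kind were called. The nuclear median was 0.12, with 72 of 78 genes above 0 (92.3%, against 52.6% of all genes tested), and the mitochondrial median was -0.12. With 1 library left out the nuclear median ran from 0.07 to 0.17 and the mitochondrial median from -0.28 to 0.02, where it was above 0 without NKO library IgG 1 or DLL4 2. KPNA2P2 stood at 1.14% and 3.65% of TPM in the NKO libraries on IgG and at 0.280% and 1.78% on DLL4, and with it left out the nuclear median was 0.10.

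The difference between the DLL4 responses was tested directly. For TKO minus NT 0 of 91 genes passed limma's test. An unadjusted p under 0.05 was found for 12 of them, beside 2062 of all 13299 genes tested. Of all genes 0.526% passed (0.196% higher and 0.331% lower). For NKO minus NT 0 passed, with 6 at an unadjusted p under 0.05, beside 1715 of all 13299 genes tested. Of all genes 0.887% passed (0.316% higher and 0.571% lower). The 2 comparisons share the NT libraries. The nuclear medians of these differences were 0.17 and 0.12 and the mitochondrial medians -0.07 and -0.20. With 1 library left out the nuclear medians ran from 0.10 (without TKO library IgG 3) to 0.25 (without TKO library IgG 2) and from 0.08 (without NKO library IgG 1) to 0.17 (without NKO library IgG 2). The mitochondrial medians ran from -0.19 (without NT library DLL4 2) to 0.09 (without TKO library IgG 2) and from -0.35 to -0.04 (without NKO library DLL4 1 and DLL4 2).

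**Figure D2:**
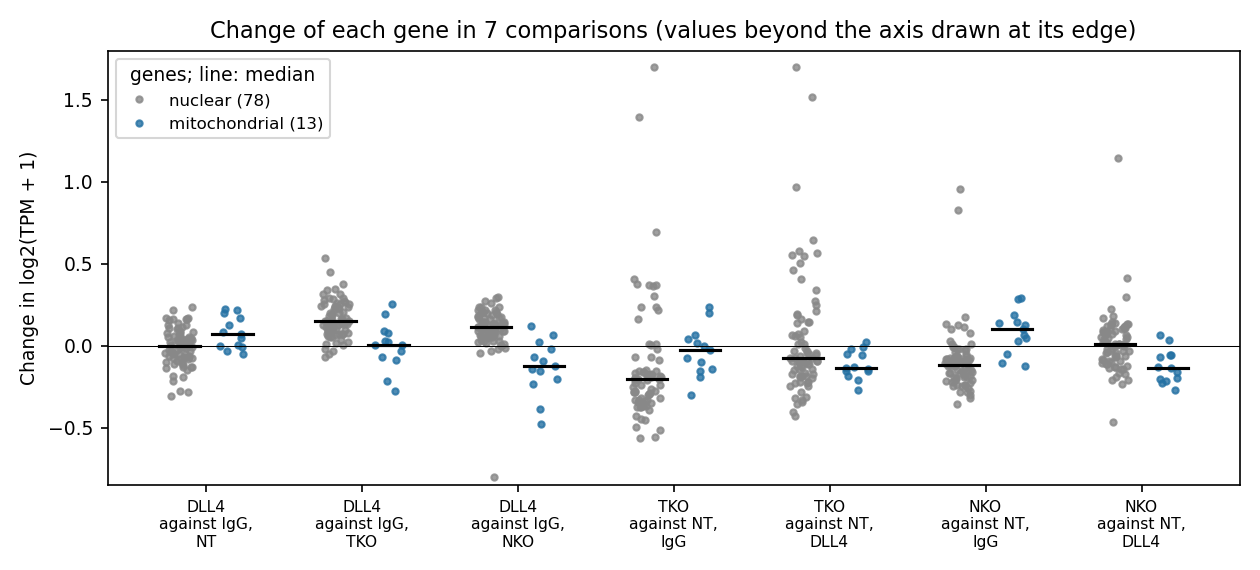
Change of each gene on the log2(TPM + 1) scale (vertical axis) in 7 comparisons (horizontal axis), with 78 nuclear genes in grey and 13 mitochondrial genes in blue and a line at each median. Values beyond the axis are drawn at its edge. The nuclear medians lie between -0.20 and 0.15 and the mitochondrial medians between -0.14 and 0.10.

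The second question was how the TKO line differs from the control line. On IgG 11 genes of the set were higher in TKO cells and 28 lower, together 39 of 91, where 27.6% of all genes tested passed (15.2% higher and 12.4% lower). On DLL4 13 were higher and 10 lower, where 26.6% of all genes passed (16.1% higher and 10.5% lower). All 39 and all 23 are nuclear genes. COX7A1, which the choice of genes implies, is 1 of the higher genes on each coating, so 10 and 12 others were higher. The 2 comparisons share no library: the 11 genes higher on IgG were all higher on DLL4 too, and of the 28 lower on IgG 26 had the same sign and 8 passed. Without TKO library IgG 3, where KPNA2P2 was highest, the count on IgG was 10 higher and 11 lower. A fit of only the 4 libraries compared called 15 on IgG, with 5 higher and 10 lower. On DLL4 the count without 1 library was lowest, at 14, without TKO library DLL4 2, and 15 without NT library DLL4 2.

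Markers of other cell types differed between the same libraries, and their part in the result was not tested. Of 8 smooth muscle and fibroblast markers 2 were tested and 1, ACTA2, was higher on IgG (0.53 ± 0.14, summed markers 22.0 to 23.7 TPM in TKO and 16.9 to 17.2 in NT libraries) and not on DLL4 (25.3 to 32.8 against 24.3 to 25.8 TPM). PDGFRB, the other marker tested, differed in the opposite direction without passing (-0.46 ± 0.23 on IgG and -0.37 ± 0.23 on DLL4). Of 7 leukocyte markers 2 were tested and 1, CD14, was higher on IgG (1.65 ± 0.30) and DLL4 (2.75 ± 0.30). Their summed level was 58.3 to 68.1 against 43.3 to 54.6 TPM and 55.2 to 64.8 against 45.0 to 45.7 TPM, with CD3E, CD79A, CSF1R and ITGAM below 0.5 TPM in every library. Of 5 epithelial markers KRT15 was tested and was lower (-0.87 ± 0.15 and -0.99 ± 0.15, sums of 37.3 to 37.7 against 67.1 to 71.6 TPM and 18.8 to 20.6 against 39.5 to 41.0 TPM), with EPCAM and CDH1 below 0.5 TPM and KRT5 and KRT14 at 0.

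The genes that rose share chromosomes. Of the 12 nuclear genes on chromosomes 11, 18 and 21, 10 rose on IgG and 12 on DLL4, with 0 lower and medians of 0.37 and 0.55. Of the 66 on other chromosomes 0 rose on either coating apart from COX7A1, while 28 fell on IgG and 10 on DLL4, with medians of -0.24 and -0.09. The 12 genes summed to 3526 ± 217 TPM in TKO against 2717 ± 10.2 in NT cells on IgG. On DLL4 they summed to 3889 ± 79.1 against 2643 ± 56.6 TPM. The 66 genes summed to 14366 ± 1085 against 17278 ± 363 TPM on IgG and 16100.5 ± 58.6 against 17329.5 ± 94.1 TPM on DLL4. These 3 chromosomes were picked with earlier results of these data known, and the split is a description. The share of all tested genes that rose was high on them too. On chromosome 11 it was 66.3% on IgG and 65.4% on DLL4 (485 and 479 of 732), on chromosome 18 it was 56.4% and 49.2% (of 179), and on chromosome 21 it was 53.7% and 52.9% (of 136). In NKO cells 1 of these 12 genes, SDHD, passed on either coating.

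**Figure D3:**
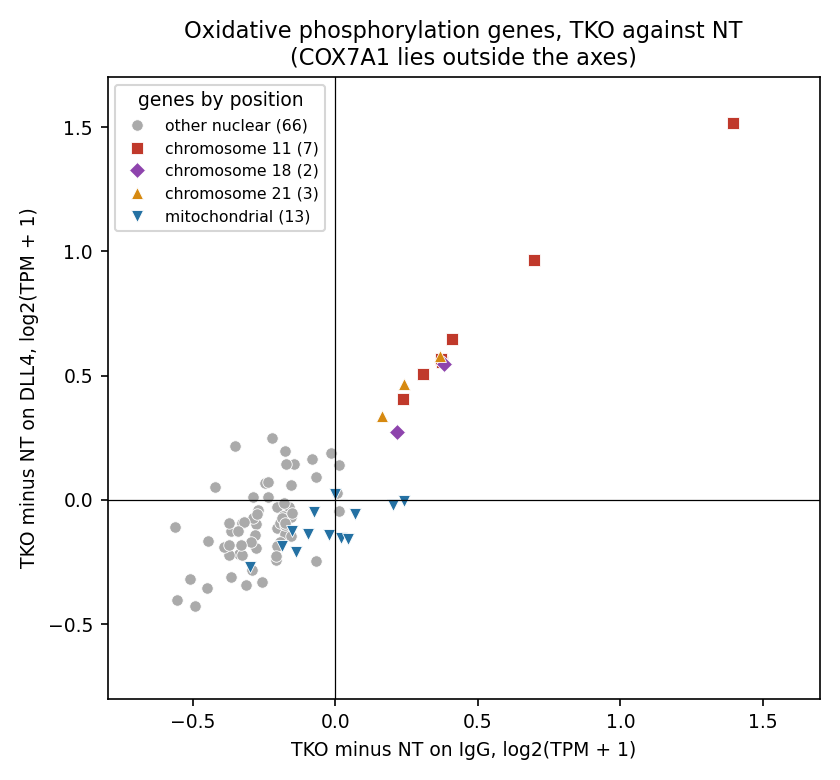
Difference between TKO and NT cells on IgG (horizontal axis) and on DLL4 (vertical axis), both in log2(TPM + 1), for the genes of the set, with symbols for chromosome 11 (7 genes), 18 (2), 21 (3), other nuclear (66) and mitochondrial (13) genes. COX7A1 lies outside the axes at 4.49 and 4.79. The 12 genes of chromosomes 11, 18 and 21 lie at the upper right and most others at the lower left.

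Among these 12 genes the largest change was in SDHD, which anchors succinate dehydrogenase in the membrane (chr11:112086773-112120013, plus strand, GRCh38). SDHD stood at 41.9 and 44.5 TPM in NT libraries on IgG and 44.4 and 41.5 TPM on DLL4. The TKO values were 116 and 114 TPM on IgG and 125 and 124 TPM on DLL4, and the NKO values 89.5, 80.5, 105 and 88.5 TPM. Both knockout lines lie above the control line without overlap, the TKO line highest. The change against NT was 1.40 ± 0.09 and 1.52 ± 0.09 in TKO cells on IgG and DLL4 (limma adjusted p = 1.7e-06 and 7.8e-07), and 0.96 ± 0.09 and 1.15 ± 0.09 in NKO cells (limma adjusted p = 8.8e-05 and 1.6e-05). The TKO and NKO comparisons share the NT libraries. SDHD passed under every alternative setting and with every library left out in turn, in all 4 comparisons.

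SDHD did not stand alone on its stretch of chromosome 11. Of 12 tested genes within 500000 bases on either side, 10 rose in TKO cells on IgG and 11 on DLL4, with 0 lower and medians of 1.16 and 1.27. In NKO cells 10 and 10 rose, with 0 lower and medians of 0.89 and 0.99. Among these neighbours were TIMM8B (1.21 ± 0.13 in TKO cells on IgG), whose start lies within the promoter printed above, and DLAT (1.45 ± 0.14), the acetyltransferase of pyruvate dehydrogenase. Around ATP5MG, farther along the chromosome, 6 of 12 neighbours rose and 2 fell in TKO cells on IgG (median 0.52), and 3 rose and 1 fell on DLL4 (median 0.31). In NKO cells 1 rose and 0 fell on IgG and 2 rose and 1 fell on DLL4.

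The core subunits of complex I on these chromosomes moved by less than SDHD. NDUFS8, which carries iron-sulfur clusters (chr11:68030617-68036644, plus strand), stood on IgG at 138 and 157 TPM for NT and at 247 and 232 TPM for TKO (0.70 ± 0.10, limma adjusted p = 0.00054). On DLL4 it stood at 153 and 141 TPM against 289 and 286 TPM (0.97 ± 0.10, limma adjusted p = 4.3e-05). NDUFV1, which binds NADH, rose by 0.31 ± 0.07 and 0.51 ± 0.07, NDUFV2 on chromosome 18 by 0.38 ± 0.09 and 0.55 ± 0.09, and NDUFS3 by 0.24 ± 0.08 and 0.41 ± 0.08. The accessory subunit NDUFC2 stood on IgG at 342 and 342.5 TPM for NT against 467 and 443 TPM for TKO, and on DLL4 at 344 and 326 against 533 and 517 TPM (0.41 ± 0.06 and 0.65 ± 0.06). In NDUFS8 and NDUFC2 the TKO libraries lie above all NT and NKO libraries. NDUFV3, an accessory subunit encoded on chromosome 21, differed by 0.24 ± 0.12 on IgG, which did not pass, and rose by 0.46 ± 0.12 on DLL4.

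In complexes IV and V the same chromosomes hold COX8A, a small nuclear subunit of complex IV, and 4 genes of ATP synthase. COX8A rose by 0.37 ± 0.08 on IgG and 0.57 ± 0.08 on DLL4, from 491 and 529 to 696 and 624 TPM and from 501 and 470.4 to 725 and 713 TPM. ATP5MG, subunit g of the membrane part, rose by 0.37 ± 0.07 and 0.56 ± 0.07, and ATP5F1A, the alpha subunit of the catalytic head, by 0.22 ± 0.06 and 0.27 ± 0.06. Of the peripheral stalk, ATP5PF rose by 0.37 ± 0.09 and 0.58 ± 0.09, while ATP5PO differed by 0.16 ± 0.10 on IgG, which did not pass, and rose by 0.34 ± 0.10 on DLL4. The limma adjusted p of the changes that passed lay between 0.00021 for ATP5MG on DLL4 and 0.022 for ATP5F1A on IgG and for ATP5PO on DLL4.

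COX7A1, known as the heart and skeletal muscle isoform of subunit VIIa of complex IV (chr19:36150922-36152869, minus strand), was the exception in position and size. It stood at 0.836 and 0.670 TPM in NT cells on IgG and 0.602 and 1.66 TPM on DLL4. The TKO values were 38.1 and 38.6 TPM on IgG and 59.7 and 52.8 TPM on DLL4, and the NKO values 1.34, 3.11, 0.207 and 0.856 TPM. Only the TKO libraries exceed 5 TPM, which brought the gene into the set. The difference from NT was 4.49 ± 0.30 on IgG and 4.79 ± 0.30 on DLL4, values that describe the choice and support nothing further. Of 28 tested neighbours within 500000 bases, 1 was higher and 2 were lower in TKO cells on IgG and 0 passed on DLL4. COX7A2, the isoform known from most tissues, stood at 332 to 484 TPM and did not pass in either comparison, with changes of -0.19 ± 0.09 and -0.17 ± 0.09.

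**Figure D4:**
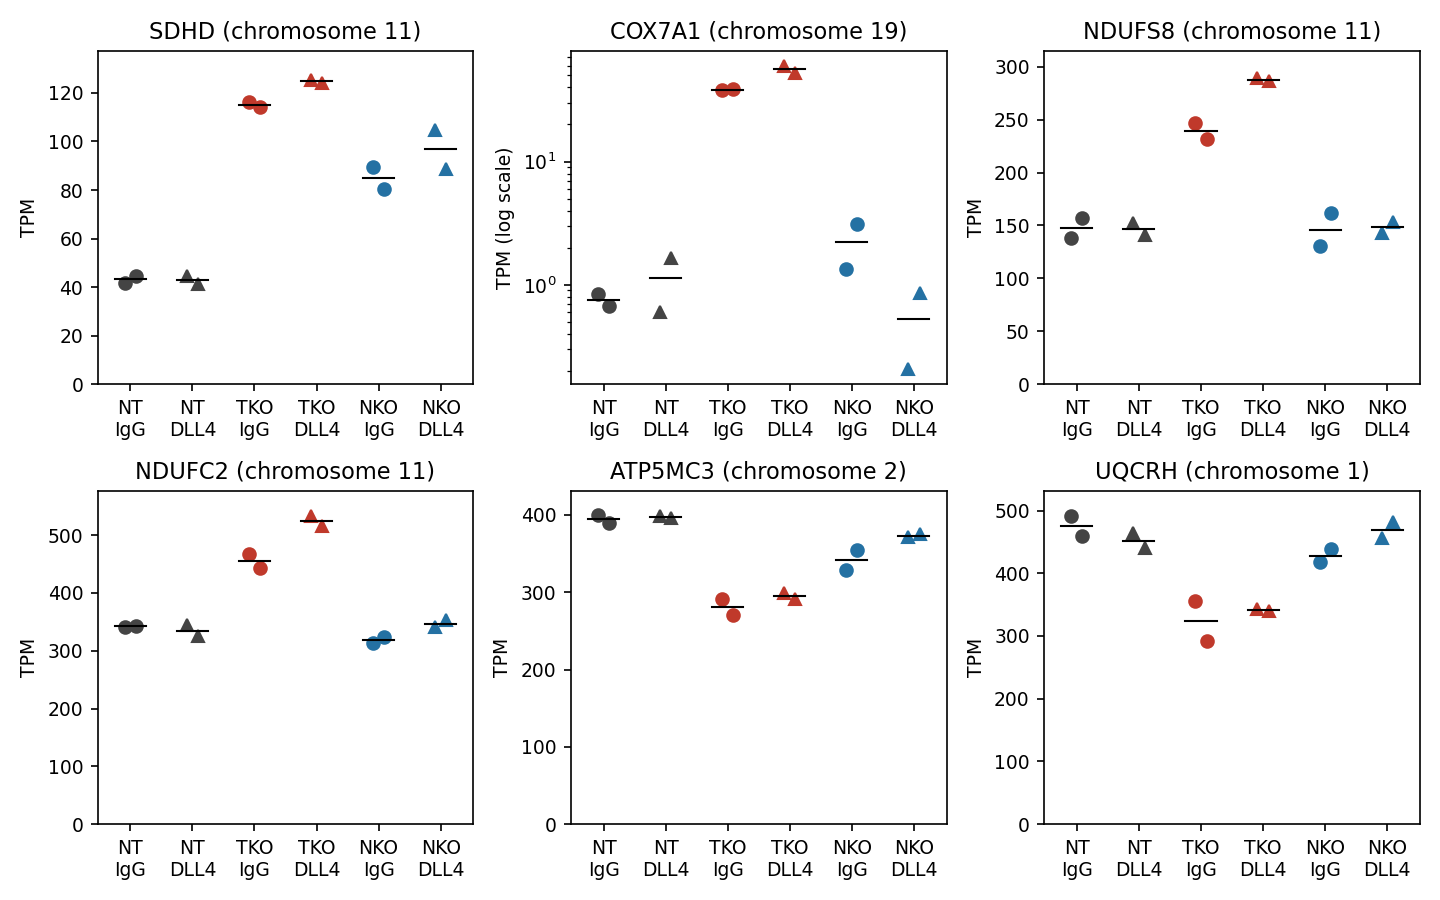
TPM per library (vertical axis, from 0, logarithmic for COX7A1) of 6 genes in the 6 groups on the horizontal axis. Points are libraries (circles IgG, triangles DLL4) and lines are means of 2. SDHD is raised in both knockout lines, COX7A1, NDUFS8 and NDUFC2 in the TKO line, and ATP5MC3 and UQCRH are lower in the TKO line.

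The genes that fell in TKO cells came from every complex. On IgG they were 9 of 35 nuclear genes of complex I, 2 of 4 of complex II, 5 of 8 of complex III, 6 of 13 of complex IV and 6 of 18 of complex V. On DLL4 the same counts were 3, 1, 2, 2 and 2. KPNA2P2 was at 1.81% and 5.61% of TPM in the TKO libraries on IgG against 1.47% and 0.369% in the NT libraries. With it left out 25 genes were lower on IgG and 10 on DLL4, and 11 and 13 higher.

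ATP5MC3, another gene for the membrane ring of ATP synthase, had the smallest p among the lower genes on both coatings. On IgG it stood at 400.5 and 389 TPM for NT and at 291 and 270.4 TPM for TKO (-0.49 ± 0.06, limma adjusted p = 0.00025). On DLL4 it stood at 399 and 396 against 299 and 291 TPM (-0.43 ± 0.06, limma adjusted p = 0.00053). ATP5MC1, which encodes the same mature protein, was lower on IgG only by the test (-0.42 ± 0.08) and had values of 286 and 303 in NT and 302 and 309 TPM in TKO cells on DLL4. ATP5MC2, the remaining gene for that protein, did not pass on either coating (-0.15 ± 0.08 and 0.14 ± 0.08). ATP5F1B, the catalytic beta subunit, was lower on both coatings (-0.34 ± 0.06 and -0.22 ± 0.06), while the alpha subunit ATP5F1A was among the genes that rose.

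Complex II was likewise divided. SDHC, the partner of SDHD in the membrane, stood on IgG at 134 and 133 TPM for NT and at 110.5 and 112 TPM for TKO (-0.26 ± 0.06, limma adjusted p = 0.0096), and at 148.5 and 152 against 121 and 118 TPM on DLL4 (-0.33 ± 0.06, limma adjusted p = 0.0022). SDHB, the iron-sulfur subunit, fell on IgG (-0.34 ± 0.07, limma adjusted p = 0.0032) and did not pass on DLL4 (-0.12 ± 0.07), and SDHA did not pass (0.01 ± 0.08 and 0.14 ± 0.08). SDHD, the remaining subunit, was the one that rose.

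In complex III 0 genes rose, and none of the 12 nuclear genes on chromosomes 11, 18 and 21 belongs to it. UQCRH, the hinge protein, stood on IgG at 492 and 459 TPM for NT and at 356 and 293 TPM for TKO (-0.56 ± 0.09, limma adjusted p = 0.00088), and at 464 and 439.6 against 343.5 and 339 TPM on DLL4 (-0.40 ± 0.09, limma adjusted p = 0.0057). The TKO libraries lie below all others. The nuclear sum of complex III was 2056 ± 57.0 TPM for NT and 1609.7 ± 177 TPM for TKO on IgG, and 2035 ± 16.0 against 1782 ± 41.5 TPM on DLL4. In complexes I and IV the lower genes of smallest p were NDUFA8 (-0.56 ± 0.08 on IgG), NDUFA10 (-0.45 ± 0.08 and -0.35 ± 0.08), NDUFA12 (-0.31 ± 0.08 and -0.34 ± 0.08) and COX5B (-0.51 ± 0.08 and -0.32 ± 0.08), all accessory subunits.

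None of the 13 mitochondrial genes passed limma's test between TKO and NT cells. Among all 13299 genes tested, 5122 on IgG and 4817 on DLL4 had an unadjusted p under 0.05. Among the 13, 1 did on each coating. That gene was MT-CO2, which holds the copper centre that receives electrons from cytochrome c. On IgG it stood at 10672 and 9912 TPM for NT and at 8965 and 7773 TPM for TKO, and at 11254 and 12846 against 9567 and 10370.5 TPM on DLL4. The TKO libraries lie below the NT libraries on both coatings, at -0.30 ± 0.11 (limma adjusted p = 0.069) and -0.27 ± 0.11 (limma adjusted p = 0.10). A difference of that size was thus not detectable in MT-CO2 with 2 libraries a group, while differences of about that size passed in nuclear genes of smaller error.

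The third question was how the NKO line differs from the control line. On IgG 1 gene of the set was higher and 2 were lower, where 10.7% of all genes tested passed (4.92% higher and 5.74% lower). On DLL4 2 were higher and 0 lower, where 20.7% of all genes passed (11.4% higher and 9.31% lower). SDHD was the gene that rose on both coatings, with the values given above. The remaining 3 calls were smaller in size.

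NDUFB2, an accessory subunit of complex I, stood on IgG at 374 and 378 TPM for NT and at 318 and 270.6 TPM for NKO (-0.36 ± 0.10, limma adjusted p = 0.044). COX5B, a nuclear subunit of complex IV, stood at 241 and 229.8 against 179.8 and 204 TPM on IgG (-0.30 ± 0.08, limma adjusted p = 0.045). NDUFB9 stood at 312 and 335 TPM in NT and 377 and 379 TPM in NKO cells on DLL4 (0.23 ± 0.07, limma adjusted p = 0.047). In all 3 the NKO libraries lie to one side of the NT libraries, which adds no support because the genes were picked by the test. The NT libraries on DLL4 are also those in which NDUFB9 was lower than on IgG, so these 2 calls rest on the same 2 values. Without NT library IgG 2 or IgG 3 the count on IgG was 1, and without NKO library IgG 2 it was 6. The NDUFB9 call was lost without any 1 of the 4 libraries. With KPNA2P2 left out, 1 gene was higher and 1 lower on IgG and 1 higher on DLL4. The nuclear medians were -0.11 on IgG and 0.01 on DLL4, beside 0.06 and 0.06 for all genes tested, and the mitochondrial medians 0.10 and -0.13, with 0 mitochondrial genes called. With 1 library left out the nuclear medians ran from -0.17 to -0.08 and from -0.005 to 0.029. The mitochondrial medians ran from -0.02 (without NKO library IgG 1) to 0.18 and from -0.30 to 0.02 (without NKO library DLL4 1 and DLL4 2), so that their signs rest on single libraries. ACTA2 was lower in NKO cells on DLL4 (-0.69 ± 0.14), and its part was not tested.

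Other genes of the pathway were read from lists of known members, which were chosen with earlier results of these data in view. The lists were not split by chromosome. A listed gene may lie on chromosome 11, 18 or 21, where many genes rose in TKO cells. Counts are to be read against the share of all genes tested that passed: 16.0% for DLL4 in NT cells (7.68% higher and 8.34% lower), 6.51% in TKO and 0.782% in NKO cells, 27.6% and 26.6% for TKO against NT on IgG and DLL4, and 10.7% and 20.7% for NKO against NT. Of 4 tested subunits and carriers outside the name patterns, 3 fell in TKO cells on IgG: CYC1, the heme protein of complex III (-0.49 ± 0.07), CYCS, cytochrome c (-0.42 ± 0.07), and NDUFAB1 (-0.27 ± 0.08). CYCS also fell in TKO cells on DLL4 (-0.30 ± 0.07) and on DLL4 in NT cells (-0.26 ± 0.07), and CYC1 in NKO cells on IgG (-0.25 ± 0.07). CYC1 rose on DLL4 in TKO cells (0.27 ± 0.07). The limma adjusted p of these 7 changes ran from 0.00048 to 0.047.

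Of 56 assembly factors, which build the complexes without being part of them, 1 rose and 3 fell on DLL4 in NT cells, a share below that of all genes. TMEM70, needed for ATP synthase assembly, had 53.9 ± 2.61 TPM on IgG and 25.7 ± 1.08 on DLL4 (-1.04 ± 0.11, limma adjusted p = 0.00019). In TKO cells 6 were higher and 10 lower than in NT cells on IgG, and 11 higher and 1 lower on DLL4, among them TMEM126B on IgG (0.61 ± 0.11) and SDHAF2 on DLL4 (0.63 ± 0.09). In NKO cells 0 were higher and 1 lower on IgG and 10 higher and 1 lower on DLL4. Between DLL4 and IgG 0 of 56 passed within the TKO line and 0 within the NKO line.

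The 78 genes of the mitochondrial ribosome, which translates the 13 mitochondrial mRNAs, were counted in the same way. On DLL4 in NT cells 24 fell and 0 rose, where 8.34% of all genes fell and 7.68% rose, with a median of -0.21 beside 0.00 for the nuclear subunits and 0.01 for all genes. MRPL15 had 245.5 ± 1.69 TPM on IgG and 181 ± 8.19 on DLL4 (-0.44 ± 0.07, limma adjusted p = 0.0024), and MRPS2 (-0.60 ± 0.11) and MRPL52 (-0.58 ± 0.10) fell as well. In TKO cells 1 rose and 0 fell on DLL4, and in NKO cells 0 and 0. Against NT cells, 5 were higher and 33 lower in TKO cells on IgG (median -0.25) and 15 higher and 2 lower on DLL4 (median 0.05). In NKO cells 1 was higher and 4 lower on IgG and 19 higher and 1 lower on DLL4. For the difference of the DLL4 responses 0 of 78 passed for TKO minus NT, with a median of 0.29, and 0 for NKO minus NT, with a median of 0.27.

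Of 26 genes that transcribe and process mitochondrial RNA 0 rose and 2 fell on DLL4 in NT cells, POLRMT, the mitochondrial RNA polymerase (-0.32 ± 0.08), and MTERF3 (-0.44 ± 0.12), and 0 passed in TKO or NKO cells. Against NT, 1 was higher and 7 lower in TKO cells on IgG and 1 and 1 on DLL4, and 1 and 0, and 6 and 0, in NKO cells. REXO2, a mitochondrial oligoribonuclease, was higher in all 4, with IgG levels of 68.9 ± 5.55 TPM (NT), 299 ± 6.80 (TKO) and 161 ± 7.79 (NKO). Its position was not set against the stretch around SDHD that rose in both knockout lines. TFAM, which packages mitochondrial DNA and starts its transcription, had 26.3 ± 2.94 TPM in NT and 49.1 ± 2.33 in NKO cells on DLL4 (0.88 ± 0.14, limma adjusted p = 0.0015). Of 14 genes of mitochondrial DNA maintenance 0 rose and 3 fell on DLL4 in NT cells, led by TOP1MT (-0.60 ± 0.09), and 0 passed in the knockout lines. Against NT, 1 was higher and 4 lower in TKO cells on IgG and 0 and 0 on DLL4, and 0 and 0, and 2 and 0, in NKO cells.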

How the data were processed

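The authors' deposited table gives TPM by gene symbol for 12 libraries; per the submitters' processing notes kallisto, edgeR and the build hg38 were used, with no versions or roles given. Sums of TPM were 974989 to 977130 per library. The number of reads, and so the counting error, is unknown. Library numbers are those of the column names.

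The genes of the set and all gene lists were chosen with earlier results of these data known. Names were matched by pattern, positions were taken from GENCODE 29 (GRCh38), and promoters from RefSeq (GRCh38.p14). MT-RNR1 and MT-RNR2 are not analysed here.

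Differences were tested with limma 3.58.1 in R 4.3.3 on log2(TPM + 1), over 13299 genes with at least 1 TPM in at least 2 libraries. The fit had a mean for each of 6 groups over 12 libraries (6 residual degrees of freedom, 10.8 after moderation) and a variance trend. Tests were two-sided over 9 contrasts, with Benjamini-Hochberg adjustment over all genes within each contrast and a threshold of 0.05. Errors are standard errors of the fit, or SD over 2 libraries beside TPM. The fit was tested on simulated data with planted changes larger than most changes of the set and with independent noise. It was thus not tested on smaller changes or on shifts shared by a whole library. Sums and figures were made in Python 3.11.15 (matplotlib 3.10.9).

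Named are, per contrast, up to 6 genes per direction of smallest p, all mitochondrial genes that results turn on, the highest and lowest of each complex, paralogs, genes of chromosomes 11, 18 and 21, and up to 4 genes per list and contrast. SDHA, SDHB and ATP5F1B were added after their values were seen. Alternatives were another pseudocount (0.1), other filters, rescalings, a replicate block, no variance trend, fits of only the libraries compared, and each library left out in turn.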

Additional observations from a re-analysis of the deposited data

How the results depend on the processing

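The counts of genes that passed moved with the processing. Of single changes, only those that passed in the fit described above were followed, and 0 of them reversed direction. Over these changes and all settings, 747 cases kept their side of the threshold and 241 lost it. Genes of the set that did not pass there were not followed singly. DLL4 in NT cells gave 0 calls after median-of-ratios rescaling, without a variance trend and in a fit limited to the libraries compared, with 0 to 1 without 1 library. With no filter it gave 1 higher and 1 lower gene. DLL4 in TKO cells gave 2 with no filter, 1 after median-of-ratios rescaling, 2 with KPNA2P2 left out, 0 without a variance trend, 0 in the limited fit, and 0 to 5 without 1 library. DLL4 in NKO cells and both differences of responses gave 0 throughout. TKO against NT gave 15 on IgG in the limited fit and 21 to 42 without 1 library. On DLL4 it gave 14 to 16 without 1 library and 11 with chromosomes 11, 18 and 21 left out, an alternative chosen after seeing the data. NKO against NT gave 1 on IgG with no filter, without a variance trend and in the limited fit, and 1 to 6 without 1 library. On DLL4 it gave 1 with no filter, after median-of-ratios rescaling, with KPNA2P2 or the mitochondrial genes left out, without a variance trend and in the limited fit, and 1 to 2 without 1 library. With the library number as a replicate block it gave 4 on DLL4, with mitochondrial medians of -0.05 on IgG and -0.27 on DLL4, and TKO against NT gave 44 and 22. Libraries of the same number deviated together with r from -0.154 to 0.279, the highest between the IgG and DLL4 libraries of the NKO line. The numbers were not taken to pair libraries because the labels do not say what a number marks. With MT-ATP6 and MT-ATP8 left out, also chosen after seeing the data, the mitochondrial share was 72.1% (NT), 73.4% (TKO) and 74.8% (NKO) on IgG and 73.99%, 72.2% and 72.4% on DLL4. The cause was not tested in any case. With a library left out, the lone library of its group is assumed to vary like the other groups. Read depth is unknown, so no counting interval can be given.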

Other observations

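The shares of all genes tested that passed were 16.0%, 6.51% and 0.782% for DLL4 in NT, TKO and NKO cells, 27.6% (IgG) and 26.6% (DLL4) for TKO against NT, and 10.7% (IgG) and 20.7% (DLL4) for NKO against NT, and the counts of each list below are to be read against them. Of 9 tested regulators of nuclear respiratory genes, PPARGC1B, a coactivator, was lower in both knockout lines. PPARGC1B had 20.3 ± 1.26 TPM (IgG) and 10.4 ± 1.32 TPM (DLL4) in the NT line, against 1.76 ± 0.862 and 0.925 ± 0.0052 in TKO cells and 4.46 ± 0.0276 and 3.53 ± 0.132 in NKO cells. The groups do not overlap between the NT line and either knockout line. The changes against NT were -2.99 ± 0.19 and -2.56 ± 0.19 for TKO, -1.96 ± 0.19 and -1.33 ± 0.19 for NKO, and -0.90 ± 0.19 for DLL4 in NT cells (limma adjusted p of 0.010 or lower). PPRC1, a related coactivator, also fell on DLL4 in NT cells (-0.41 ± 0.10). In TKO cells GABPA was higher on IgG (0.61 ± 0.16), and in NKO cells YY1 (0.50 ± 0.13) and PPRC1 (0.39 ± 0.10) were higher on DLL4. The genes of this list and of those below were not split by chromosome. Some may lie on chromosomes 11, 18 or 21, where many genes rose in TKO cells. In all, 0 of the 9 rose and 2 fell on DLL4 in NT cells and 0 passed in the knockout lines, while against NT the counts were 1 higher and 1 lower, 0 and 1, 0 and 1, and 2 and 1.

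Glycolysis, the other main source of ATP in these cells, was read from 21 genes. On DLL4 in NT cells 1 rose, the glucose transporter SLC2A3 (0.63 ± 0.12), and 4 fell, led by LDHA, lactate dehydrogenase A, from 1093 ± 8.71 to 728 ± 26.5 TPM (-0.59 ± 0.07, limma adjusted p = 0.00051). On DLL4 1 rose in TKO cells, ALDOC, and 0 passed in NKO cells. Against NT, 4 were higher and 7 lower in TKO cells on IgG and 3 and 4 on DLL4, with LDHA (0.38 ± 0.07 and 0.77 ± 0.07) higher and ALDOC, an aldolase (-1.74 ± 0.15 and -1.17 ± 0.15), lower. The position of LDHA was not set against the chromosomes on which many genes rose in TKO cells. In NKO cells 0 were higher and 1 lower on IgG and 4 and 2 on DLL4. Of 16 genes of the citric acid cycle and pyruvate dehydrogenase 1 rose on DLL4 in NT cells, OGDH. Against NT, 1 was higher and 3 lower in TKO cells on IgG and 1 and 1 on DLL4, and 1 and 0, and 3 and 0, in NKO cells. DLAT, a neighbour of SDHD, was the one higher in all 4. Of 18 genes that make coenzyme Q or pass electrons to it, 0 rose and 2 fell on DLL4 in NT cells, PDSS1 (-0.62 ± 0.13) and SQOR (-0.61 ± 0.12), and 0 passed in the knockout lines. Against NT, 1 was higher and 5 lower in TKO cells on IgG and 1 and 1 on DLL4, and 1 and 1, and 4 and 0, in NKO cells. Of the nuclear copies of mitochondrial genes 12 were tested, and 0 passed in any comparison.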
